A study of Rattus norvegicus with 8 samples.

Results

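The genes described here belong to the cilium, the microtubule-based hair of the cell surface, and to the axoneme, its internal scaffold. They were taken by symbol: the families Ift, Bbs, Dnah, Dnal, Dnai, Tekt, Tctn, Spag, Cfap and Rsph followed by a digit, together with Foxj1, Dynlrb2, Arl13b, Kif3a, Kif3b, Rfx2, Rfx3, Rfx4, Cetn2 and Ttr. Of 14217 genes read on the array from probe sets with 1 symbol, 78 were found by this rule, represented by 102 probe sets; Arl13b was not among the genes so read. The 78 were divided into 38 genes of families known from the motile axoneme, 29 genes of ciliary transport and entry, 4 transcription factors, and 7 others (Cetn2, Ttr, Spag4, Spag5, Spag7, Spag9 and Spag11a). The motile division follows the family name, and some Cfap proteins, such as those of Cfap36, Cfap410 and Cfap418, are better known from non-motile cilia. Transcripts were measured in 2 sorted populations of the rat brain, taken on postnatal day 7: A2B5+ cells, which the labels call oligodendrocyte progenitors, and GalC+ cells, which they call oligodendrocytes. A2B5 is a ganglioside epitope of glial progenitors that young neurons can also carry, and GalC is galactocerebroside, a lipid of oligodendrocytes and myelin. There were 4 replicates of each population on 1 Affymetrix array apiece, and every replicate pooled the 10 pups of a litter; the labels used here name no strain, genotype or treatment.

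Most vertebrate cells, neural progenitors among them, can grow a single non-motile primary cilium, which serves as an antenna for Hedgehog and other signals. It is built by intraflagellar transport: kinesin-2 carries trains of IFT-B and IFT-A particles to the tip, and dynein-2 carries them back. IFT-B is needed mainly for the outward way and IFT-A for the return, and the BBSome moves membrane proteins along the same track. Ependymal cells, which line the ventricles, grow tufts of motile cilia that drive cerebrospinal fluid; these need dynein arms, radial spokes and further axonemal proteins in addition to the transport machinery, and their genes are switched on by Foxj1 and the Rfx factors. Dividing cells take the cilium down before mitosis, since its basal body is a centriole.

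Each deposited value is the signal of a probe set relative to the middle of its 8 arrays: a ratio of 1 is that median, and the level of a gene is not known. Median ratios per array lay between 0.979 and 1.03, and the first principal component held 73% of the variance. Known genes of both stages differed as follows: Mbp, a myelin protein, was 14.6-fold higher in GalC+, and Pdgfra, the growth factor receptor of progenitors, was 2.40-fold lower. Of 6 progenitor markers read, Pdgfra among them, 2 were lower in GalC+ and 4 did not pass the test used below. The 4 arrays per population limit the precision, with a median SE of 0.109 for a log2 fold change. Both arrays numbered 2 stood lower than the others for endothelial markers (median log2 ratio -1.01 in A2B5+ and -0.97 in GalC+, against -0.50 to 0.18 on the other arrays) and for choroid plexus markers (-0.23 and -0.38, against -0.05 to 0.16), and results are given without them where a call is lost.

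Cilium and axoneme genes were lower in GalC+ than in A2B5+ cells in 42 of 78 cases and higher in 2 (limma, adjusted p under 0.05 over all genes). Over all 14217 genes 17.5% were lower and 18.2% higher, against 53.8% and 2.56% of the cilium and axoneme genes; in either direction it was 35.7% of all genes and 56.4% of these. The other 34 did not pass the test. The median log2 fold change was -0.43, beside 0.04 over all genes, and single genes lay between -1.08 (Spag5) and 3.23 (Cfap20dc). The changes were small: among the 22 lower genes of the motile axoneme the fold ran from 1.28 to 1.99, and among the 14 lower genes of ciliary transport from 1.25 to 1.78. In 42 genes all 4 GalC+ arrays lay below all 4 A2B5+ arrays, as they did in 17.7% of all genes, and in 2 they lay above, as in 18.5%; in either direction the groups were apart in 36.2% of all genes. The cells were measured in bulk, so fewer cells that carry a transcript and less of it per cell cannot be told apart. Without both arrays numbered 2, 38 of the 44 calls were kept; the 6 that were lost are those of Foxj1, Rfx2, Dnah7, Cfap97, Ift81 and Bbs2.

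**Figure D1:**
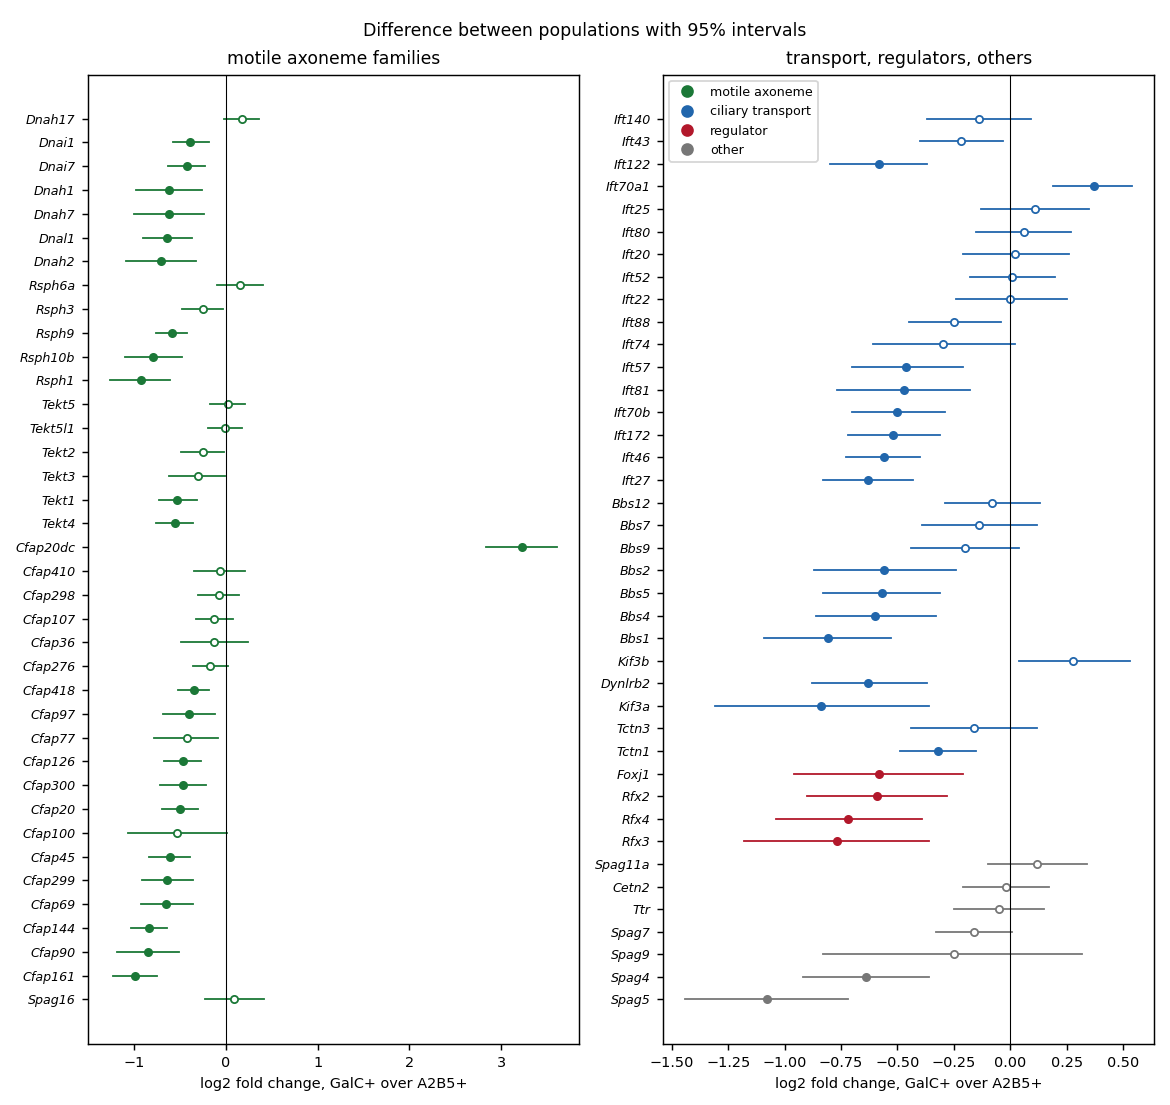
Log2 fold change of each cilium and axoneme gene, GalC+ over A2B5+ (n = 4 and 4), with its 95% interval from limma; filled points passed an adjusted p of 0.05, and the 2 panels have different horizontal scales. Most points lie left of 0, Cfap20dc stands alone at 3.23, and the factors Foxj1, Rfx2, Rfx3 and Rfx4 are all filled.

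The transcription factors were lower in 4 of 4 cases, with a median of -0.65. Foxj1, the factor that commands the motile cilium programme, had ratios of 1.229, 1.059, 1.062 and 1.092 on the A2B5+ arrays and 0.913, 0.622, 0.560 and 0.941 on the GalC+ arrays. The groups did not overlap, but GalC+ arrays 2 and 3 were far below the other pair. The log2 fold change was -0.58 ± 0.17 SE (limma adjusted p = 0.0221); it lost its call without A2B5+ replicate 1 (adjusted p = 0.0606), without GalC+ replicate 2 (0.0621) and without both arrays numbered 2 (0.0997).

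Rfx3, which binds and switches on genes of both motile and primary cilia, had ratios of 1.458, 1.783, 1.065 and 1.268 in A2B5+ and 0.935, 0.599, 0.800 and 0.926 in GalC+. A2B5+ replicate 2 was the highest of the 8 and GalC+ replicate 2 the lowest, with no overlap between groups (log2 fold change -0.77 ± 0.18, adjusted p = 0.00884). Its second probe set showed -0.07, and averaging the pair gave -0.42. Rfx4, a factor of the developing brain, gave 1.288, 1.606, 1.094 and 1.372 against 0.854, 0.633, 0.906 and 0.868 (-0.72 ± 0.15, adjusted p = 0.00389). Rfx2, a close relative of Rfx3, gave 1.577, 1.369, 1.026 and 1.214 against 0.906, 0.794, 0.753 and 0.974 (-0.59 ± 0.14, adjusted p = 0.00892); its adjusted p was 0.0662 without both arrays numbered 2. In all 3 Rfx genes A2B5+ replicate 3 was the lowest of its group.

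Rfx proteins bind the X-box, an inverted repeat found before many ciliary genes, and the promoters of the genes were therefore read for it. RefSeq promoters (rat assembly GRCr8, 250 bases before and 50 after the start of a gene) were found for 66 of the 78; none was found for Rsph1, Tekt5, Cfap410, Cfap107, Cfap418, Spag16, Ift25, Ift80, Ift74, Ift57, Foxj1 and Spag11a. The motif searched was GTTNCC, then 2 bases of any kind, then GGNAAC, which reads the same on both strands, with at most 1 of its 10 fixed letters changed. It stood in 11 of 66 promoters (16.7%), against 929 of 33469 promoters in all (2.78%). Without any change it stood in 2 of 66 (3.03%), against 158 in all (0.472%). The share was 15.8% in 38 promoters of genes that were lower in GalC+ and 15.4% in 26 of genes that did not pass, and the difference between these shares was not tested. The 33469 promoters in all are every entry, whether or not its gene was read on the array. Each cilium and axoneme gene gave 1 entry, although 5 of them had several. The matches that lie wholly before the start are shown with 80 bases around them, because they include a gene that fell, a gene that rose and a gene that did not pass; capitals mark the match, and each sequence is read 5′ to 3′ on the strand of the gene.
Dnah2: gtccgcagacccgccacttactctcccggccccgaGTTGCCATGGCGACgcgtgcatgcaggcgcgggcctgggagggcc
Ift70b: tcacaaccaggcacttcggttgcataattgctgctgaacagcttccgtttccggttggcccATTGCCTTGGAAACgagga
Spag5: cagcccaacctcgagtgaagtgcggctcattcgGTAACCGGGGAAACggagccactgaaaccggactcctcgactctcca
Cfap20dc: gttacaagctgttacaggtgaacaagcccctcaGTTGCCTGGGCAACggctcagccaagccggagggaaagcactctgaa
Cfap298: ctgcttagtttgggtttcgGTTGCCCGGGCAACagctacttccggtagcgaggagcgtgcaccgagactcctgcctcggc
Bbs7: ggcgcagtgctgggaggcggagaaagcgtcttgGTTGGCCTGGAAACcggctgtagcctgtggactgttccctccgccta
Dnah2, Ift70b and Spag5 were lower in GalC+, Cfap20dc was higher, and Cfap298 and Bbs7 did not pass. The windows lie on GRCr8 at chr10:54766027-54766106 (minus strand, Dnah2), chr3:81265646-81265725 (minus, Ift70b), chr10:63696588-63696667 (plus, Spag5), chr15:18661351-18661430 (plus, Cfap20dc), chr11:43677553-43677632 (minus, Cfap298) and chr2:121402561-121402640 (minus, Bbs7). Counted from the start of the gene, with the base before it as -1, the match of Dnah2 spans -45 to -32 and that of Ift70b -19 to -6. The matches of Cfap20dc (-178 to -165) and Cfap298 (-231 to -218) have no changed letter. A match describes these letters and does not show that a factor binds there.

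**Figure D2:**
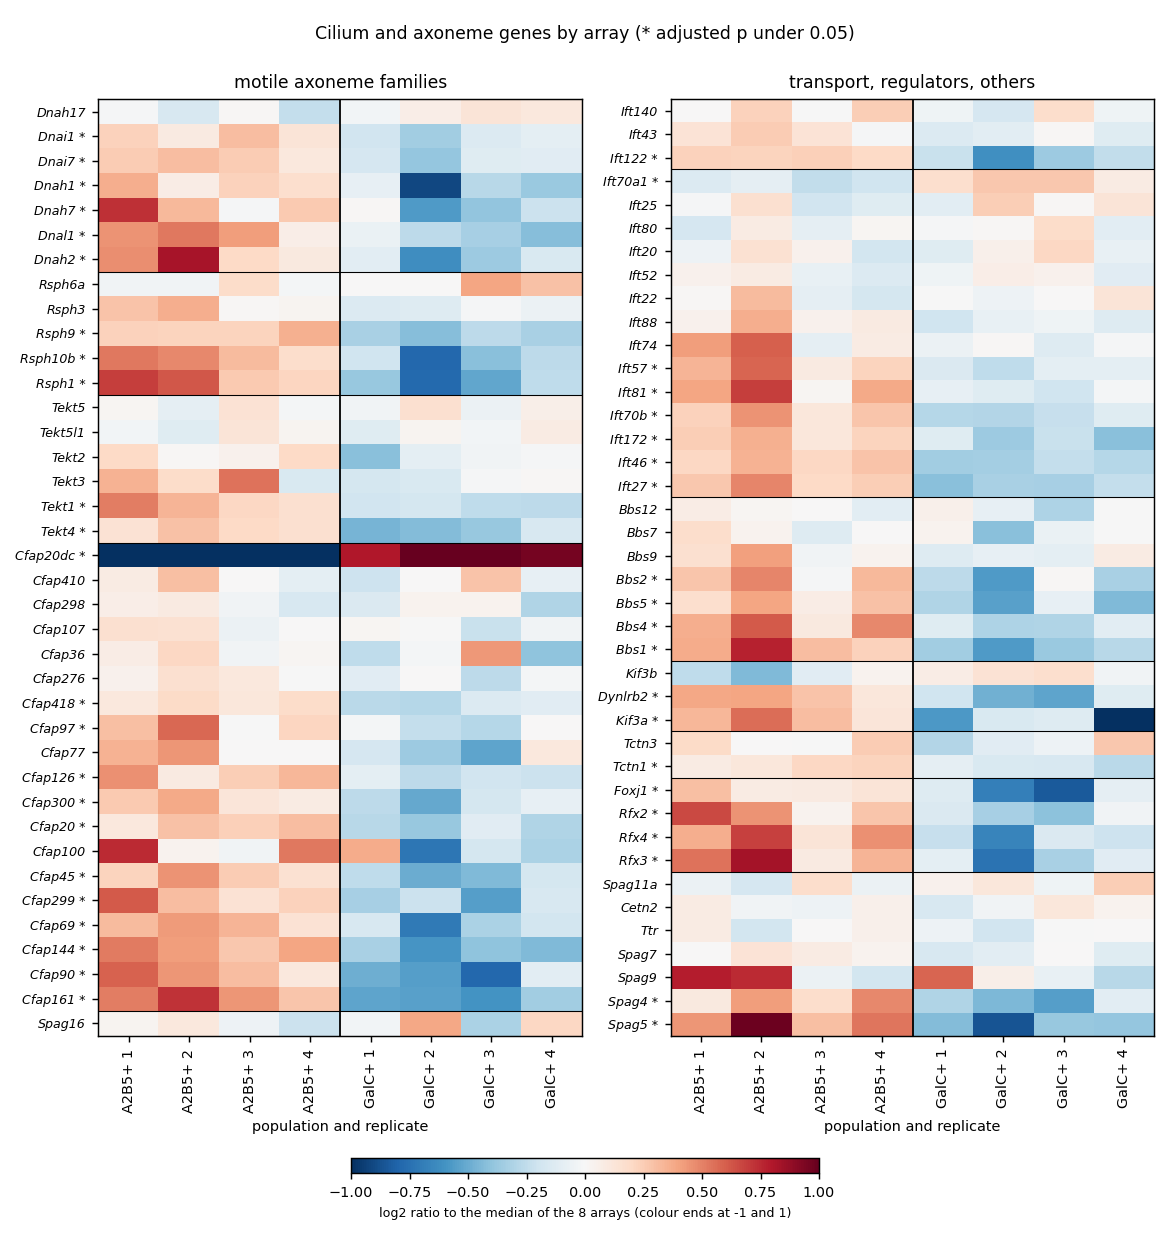
Log2 ratio of each gene to its median over the 8 arrays (colour, ending at -1 and 1), with arrays in columns, genes in rows grouped by role between the thin lines, and stars for genes past an adjusted p of 0.05. The A2B5+ columns are mostly red and the GalC+ columns mostly blue, most strongly A2B5+ replicate 2 and GalC+ replicate 2, and Cfap20dc shows the opposite colours.

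Families of the motile axoneme, divided by name as said above, were lower in 22 of 38 cases and higher in 1 (Cfap20dc), with a median of -0.45. The axonemal dyneins, whose chains form the arms that bend the axoneme, were lower in 6 of 7 cases. Dnah2, a heavy chain of the inner arm, had ratios of 1.383, 1.768, 1.148 and 1.070 in A2B5+ and 0.930, 0.649, 0.778 and 0.899 in GalC+. All A2B5+ arrays were above all GalC+ arrays (log2 fold change -0.71 ± 0.17, adjusted p = 0.00954). The inner arm heavy chains Dnah1 (-0.62 ± 0.16, adjusted p = 0.0136) and Dnah7 (-0.62 ± 0.17, adjusted p = 0.0171) were lower by nearly the same fold. Dnah7 was 1.662 on A2B5+ replicate 1 but 0.991 on A2B5+ replicate 3, which overlaps the GalC+ range of 0.674 to 1.009, and its adjusted p was 0.0936 without both arrays numbered 2. The outer arm intermediate chain Dnai1 (-0.39, adjusted p = 0.00719) and Dnai7 (-0.43, adjusted p = 0.00453) fell less. Dnal1, an outer arm light chain, was lower on the probe set read (-0.64, adjusted p = 0.00268), whereas the other 2 probe sets showed 0.13 and 0.06, and the mean of the 3, -0.15, did not pass (adjusted p = 0.168). Dnah17, an outer arm heavy chain known from sperm, did not pass (0.17, 95% interval -0.02 to 0.36).

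Radial spokes, which reach from the outer microtubule doublets to the central pair, had 3 of 5 genes lower. Rsph1, of the spoke head, had ratios of 1.614, 1.536, 1.201 and 1.163 in A2B5+ and 0.771, 0.582, 0.699 and 0.837 in GalC+, a 1.91-fold difference (log2 fold change -0.93 ± 0.15, adjusted p = 9.89e-04). A2B5+ replicates 1 and 2 were well above 3 and 4, and each of them above every GalC+ array. Rsph9, also of the spoke head, was more even, with 1.171, 1.169, 1.168 and 1.277 against 0.797, 0.744, 0.832 and 0.797 (-0.59 ± 0.08, adjusted p = 3.58e-04). Rsph10b was lower (-0.79, adjusted p = 0.00176), but its second probe set showed 0.04 and the mean of both was -0.38. Rsph3, of the spoke stalk, missed the threshold (-0.25, adjusted p = 0.0719) although its groups did not overlap; it passed with quantile normalization (0.0491) and without A2B5+ replicate 3 (0.0420). Rsph6a, the relative of the spoke head gene Rsph4a that is known from testis, showed 0.15 (95% interval -0.10 to 0.40).

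Tektins are filament proteins inside the doublet microtubules, and 2 of 6 were lower. Tekt1 had ratios of 1.422, 1.266, 1.156 and 1.116 in A2B5+ and 0.875, 0.884, 0.839 and 0.834 in GalC+, with a narrow GalC+ group (log2 fold change -0.53 ± 0.09, adjusted p = 0.00178). Tekt4 fell by 0.56 ± 0.09 on the log2 scale (adjusted p = 0.00117). Tekt2 (-0.25, adjusted p = 0.0896) and Tekt3 (-0.31, adjusted p = 0.104) did not pass, though Tekt2 did with array weights (-0.31, adjusted p = 0.0358) and Tekt3 without A2B5+ replicate 4 (-0.44, adjusted p = 0.0173). Tekt5 (0.02, 95% interval -0.17 to 0.21) and Tekt5l1 (-0.01, -0.20 to 0.18) lay near 0. Spag16, of the central pair, did not pass either (0.09, 95% interval -0.23 to 0.42).

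Of 19 Cfap genes, 11 were lower and 1 higher. Cfap161, a protein inside the doublet microtubules, showed the largest fall of the motile division, with ratios of 1.424, 1.653, 1.360 and 1.213 in A2B5+ and 0.694, 0.687, 0.661 and 0.787 in GalC+ (log2 fold change -0.99 ± 0.11, 1.99-fold, adjusted p = 1.50e-04). Cfap90 (-0.85, adjusted p = 0.00207) and Cfap144 (-0.84, adjusted p = 1.37e-04) followed, and the second probe set of Cfap144 showed -0.77. None of these 3 had overlapping groups, though Cfap90 came close, at 1.073 on A2B5+ replicate 4 against 0.927 on GalC+ replicate 4. Cfap69, of the central apparatus (-0.65), Cfap299 (-0.64), Cfap45, a microtubule inner protein (-0.61), Cfap20 (-0.50), Cfap300, an assembly factor of dynein arms (-0.47), Cfap126 (-0.47) and Cfap418, linked to retinal disease (-0.35), were lower with adjusted p values from 0.00138 to 0.00888. Cfap97 was lower as well (-0.40, adjusted p = 0.0341), with overlapping groups. It did not pass when any of A2B5+ replicates 1, 2 and 4 or GalC+ replicates 2 and 3 was omitted (highest adjusted p = 0.0851), nor without both arrays numbered 2 (0.165).

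Cfap77 (-0.43, adjusted p = 0.0521) and Cfap100 (-0.53, adjusted p = 0.115) did not pass, and with the replicate number as a block they did (0.0386 and 0.0109). Cfap77 also passed with quantile normalization (0.0458), median centring (0.0456), array weights (0.0451), averaged probe sets (0.0460) and a trended and robust prior (0.0313), and without A2B5+ replicate 3 (0.0451) or GalC+ replicate 4 (0.0150). Cfap100 also passed without GalC+ replicate 1 (-0.72, adjusted p = 0.0315). Cfap100 was spread widely in both groups, from 0.978 to 1.679 in A2B5+ and from 0.605 to 1.291 in GalC+. Cfap276 (-0.17), Cfap36 (-0.13), Cfap107 (-0.13), Cfap298 (-0.08) and Cfap410 (-0.07) were not detectably different.

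Cfap20dc, which encodes a protein with a domain like that of Cfap20, ran against the rest. It stands in the motile division by its family name, and whether it belongs to motile cilia was not tested. Its ratios were 0.245, 0.210, 0.258 and 0.246 in A2B5+ and 1.742, 2.339, 3.189 and 1.937 in GalC+, a 9.37-fold rise (log2 fold change 3.23 ± 0.17, adjusted p = 2.65e-06). All GalC+ arrays were far above all A2B5+ arrays, and GalC+ replicate 3 was the highest. Changes of at least 2-fold past the threshold were found in 7.41% of all genes; here only Cfap20dc and Spag5 reached them.

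Genes of ciliary transport and entry were lower in 14 of 29 cases and higher in 1, with a median of -0.30. That median rested in part on A2B5+ replicate 2: it was -0.19 without that array and -0.20 without both arrays numbered 2. Whether the median differs from that of the motile axoneme was not tested. Kif3a, a motor chain of kinesin-2, had ratios of 1.258, 1.473, 1.236 and 1.085 in A2B5+ and 0.671, 0.899, 0.915 and 0.444 in GalC+ (log2 fold change -0.84 ± 0.21, adjusted p = 0.0129). The lowest was GalC+ replicate 4, and the second probe set showed -0.39. Kif3b, the partner chain, had 0.837, 0.737, 0.922 and 1.023 against 1.052, 1.104, 1.123 and 0.977; its groups overlapped and it did not pass (0.28, adjusted p = 0.0693), though it did as the mean of its 2 probe sets (0.25, adjusted p = 0.0430) and without A2B5+ replicate 4 (0.0339). Dynlrb2, a roadblock light chain of dynein, was lower (-0.63 ± 0.11, adjusted p = 0.00226).

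IFT-B, the particle needed mainly for outward transport, had 6 of 14 genes lower and 1 higher. Ift27, a small GTPase that helps Hedgehog components leave the cilium, had ratios of 1.207, 1.402, 1.151 and 1.185 in A2B5+ and 0.747, 0.799, 0.796 and 0.849 in GalC+ (log2 fold change -0.63 ± 0.09, adjusted p = 5.84e-04). Its binding partner Ift25 showed no detectable difference (0.11, 95% interval -0.13 to 0.35), and its 3 probe sets lay between 0.10 and 0.12. Ift46 (-0.56, adjusted p = 4.35e-04; mean of its 2 probe sets -0.37), Ift172 (-0.52, adjusted p = 0.00206) and Ift57 (-0.46, adjusted p = 0.00934) were lower. Ift81, which binds tubulin, was lower on the probe set read (-0.47, adjusted p = 0.0178), but the mean of its 3 probe sets was -0.24 (adjusted p = 0.103), and without both arrays numbered 2 it was -0.36 (0.0765). A trended and robust prior also left Ift81 short of the threshold (0.0565). Its partner Ift74 did not pass (-0.30, adjusted p = 0.130), except without A2B5+ replicate 3 (-0.41, adjusted p = 0.0318).

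Ift88, a core subunit needed to build the cilium, had ratios of 1.033, 1.283, 1.028 and 1.067 in A2B5+ and 0.871, 0.948, 0.972 and 0.915 in GalC+. The groups did not overlap, by a gap that was small on 3 of the A2B5+ arrays, and the difference missed the threshold (-0.25 ± 0.09, adjusted p = 0.0646), which it passed with quantile normalization (0.0272), median centring (0.0457) and a trended and robust prior (0.0425). Ift80 (0.06), Ift20 (0.02), Ift52 (0.01) and Ift22 (0.00) lay near 0, with 95% intervals within -0.24 and 0.27. The paralogs Ift70a1 and Ift70b went opposite ways. Ift70b was lower, with 1.173, 1.368, 1.080 and 1.210 against 0.821, 0.816, 0.853 and 0.920 (-0.50 ± 0.09, adjusted p = 0.00235), and Ift70a1 was higher, with 0.912, 0.939, 0.845 and 0.871 against 1.123, 1.208, 1.208 and 1.061 (0.37 ± 0.08, adjusted p = 0.00579). Neither pair of groups overlapped. These genes are close copies of each other, and how far each probe set reads the other gene was not tested.

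IFT-A, the particle needed mainly for return transport, had 1 of 3 genes lower. Ift122 had ratios of 1.171, 1.165, 1.182 and 1.145 in A2B5+, a narrow group, and 0.855, 0.652, 0.776 and 0.843 in GalC+ (log2 fold change -0.58 ± 0.10, adjusted p = 0.00136); its second probe set showed -0.09, and the mean of both was -0.34. Ift43 (-0.22, adjusted p = 0.0673) and Ift140 (-0.14, adjusted p = 0.323) did not pass. Ift43 passed with quantile normalization (0.0320), with median centring (0.0433) and where genes were read as the mean of their probe sets (0.0497).

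The BBSome was lower in 4 of 7 genes. Bbs1, the subunit that binds the membrane GTPase Arl6, had ratios of 1.294, 1.702, 1.236 and 1.174 in A2B5+ and 0.786, 0.674, 0.775 and 0.826 in GalC+ (log2 fold change -0.81 ± 0.12, adjusted p = 9.23e-04; mean of its 2 probe sets -0.60). A2B5+ replicate 2 was again the highest and GalC+ replicate 2 the lowest. The subunits Bbs4 (-0.60, adjusted p = 0.00338), Bbs5 (-0.57, adjusted p = 0.00409) and Bbs2 (-0.56, adjusted p = 0.0121) were lower; Bbs2 was -0.39 without both arrays numbered 2 (adjusted p = 0.0737). Bbs9 (-0.20), Bbs7 (-0.14) and Bbs12, a chaperonin-like assembly factor (-0.08), did not pass. Of the tectonins, which sit in the transition zone at the base of the cilium, Tctn1 was lower on the probe set read (-0.32, adjusted p = 0.00953). Its other probe set went up by 0.22 without passing, and averaged together they gave -0.05 (adjusted p = 0.642). Tctn3 did not pass (-0.16, adjusted p = 0.352).

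Among the 7 others, 2 were lower. Spag5 is no ciliary gene but encodes astrin of the mitotic spindle; its ratios were 1.360, 1.974, 1.232 and 1.448 in A2B5+ and 0.741, 0.551, 0.768 and 0.764 in GalC+ (log2 fold change -1.08 ± 0.16, adjusted p = 7.72e-04). Markers of dividing cells were lower beside it in 8 of 8 cases, with a median of -0.85. Spag4, a nuclear envelope protein of the SUN family, fell by 0.64 (adjusted p = 0.00307). The centriole protein Cetn2 had 1.059, 0.976, 0.964 and 1.035 against 0.893, 0.977, 1.082 and 1.023, with mixed groups (-0.02, 95% interval -0.21 to 0.17). Ttr, the thyroid hormone carrier made by the choroid plexus, had 1.056, 0.880, 1.002 and 1.038 against 0.967, 0.874, 0.998 and 1.002 (-0.05, 95% interval -0.25 to 0.15). Its lowest arrays were the 2 numbered 2. Spag7 (-0.16), the scaffold gene Spag9 (-0.25) and the epididymal gene Spag11a (0.12) did not pass. Of the other 3 probe sets of Spag9, 1 was lower (-0.53, limma adjusted p = 0.0226 over all probe sets) and the rest showed -0.09 and 0.01.

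Further genes of the cilium, listed apart from the rule, were read in the same fit. Their lists were chosen with earlier results of these data known. Only part of each list was read: 27 of 61 other motile axoneme genes, 15 of 24 further transport genes and 21 of 26 of the transition zone and basal body. For the multiciliated programme and centrioles it was 14 of 18, and for the ciliary membrane and Hedgehog signalling 18 of 22. Of 27 other motile axoneme genes, 21 were lower and 1 higher, with a median of -0.57. Ropn1l, of the radial spoke, fell by 1.12 (adjusted p = 0.00252), and Lrrc23, also of the spoke, by 1.00 (adjusted p = 6.13e-04). Tppp3, a tubulin-binding protein that other cells of the brain express too, was higher (0.71, adjusted p = 0.0103). Of 15 further transport genes, 10 were lower and none higher, with a median of -0.44; Arl6, which recruits the BBSome (-0.68, adjusted p = 0.00327), and the IFT-A subunit Wdr35 (-0.63, adjusted p = 0.00302) fell most, and the dynein-2 heavy chain Dync2h1 showed -0.50. The transition zone and basal body had 11 of 21 lower and 1 higher at a median of -0.34. Cep41 (-0.65, adjusted p = 0.00394) and Tmem67 (-0.53, adjusted p = 0.0112) fell; without both arrays numbered 2 the adjusted p of Tmem67 was 0.0509. Ccp110, which caps the centriole and holds back the cilium, was higher (0.57, adjusted p = 0.00600).

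Genes of the multiciliated cell programme and of centriole formation were lower in 7 of 14 cases and higher in none, at a median of -0.34. Myb (-1.19, adjusted p = 8.31e-04) and Ccno (-1.17, adjusted p = 0.00303), which act as multiciliated cells form, fell most, and Deup1, a scaffold of centriole amplification, showed -0.82. Cep152 (-0.58), Stil (-0.87) and Cenpj (-0.84), in the same list, also serve centriole duplication in dividing cells. Markers of dividing cells were lower in 8 of 8 cases (median -0.85), and their part in the falls of this list, Myb and Ccno included, was not tested. Gmnc, an upstream regulator of multiciliation, did not pass (-0.17). Of 18 genes of the ciliary membrane and of Hedgehog signalling, 7 were lower and 3 higher, at a median of -0.07. These are 38.9% and 16.7%, against 17.5% and 18.2% of all genes, so the share that rose was near that of all genes. The receptor Gpr161, which restrains Hedgehog signalling in the cilium (-1.13, adjusted p = 0.00302), and the Hedgehog target and effector Gli1 (-0.74, adjusted p = 0.00535) fell most. The Hedgehog-binding protein Hhip (1.69, adjusted p = 5.38e-05) and the Gli inhibitor Sufu (0.45, adjusted p = 0.00538) rose most.

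**Figure D3:**
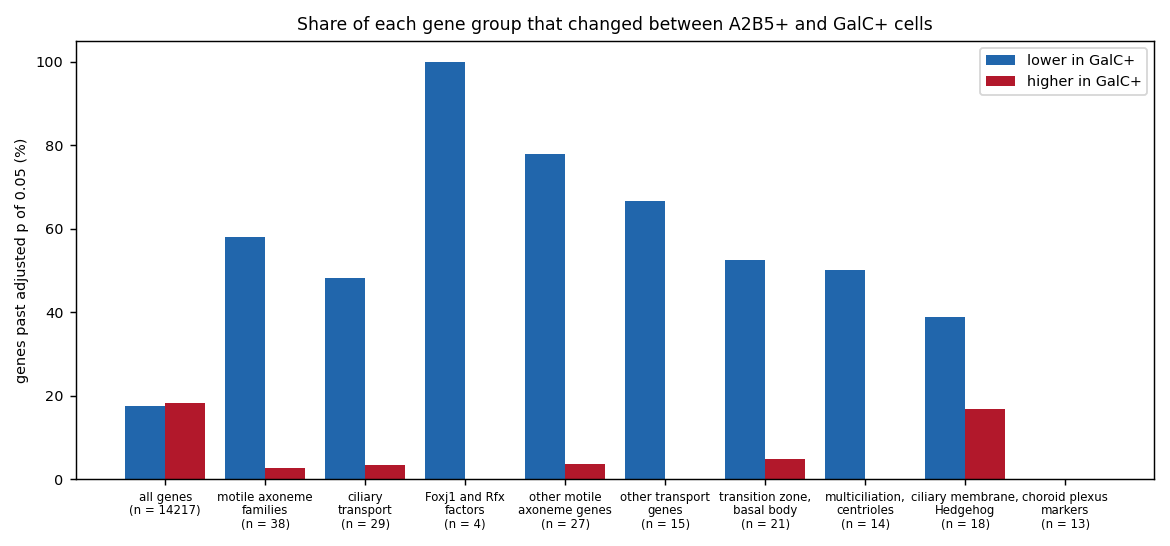
Share of each gene group past an adjusted p of 0.05 (limma), lower (blue) or higher (red) in GalC+, with the number of genes read below each pair of bars. Over all genes the shares are 17.5% and 18.2%; the blue bar is above that in each ciliary group shown and at 0 for choroid plexus markers.

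Markers of other cells the sorts could hold were set beside these results. Over all genes 17.5% were lower, 18.2% higher and 35.7% changed in either direction. The share of astrocyte and radial glia markers that were lower (10%) and of endothelial markers that were higher (14.3%) did not exceed those of all genes. Choroid plexus markers passed in 0 of 13 cases by limma; 1 of them, Otx2, had an unadjusted p of 0.0491 (-0.61). Of 6 ependymal markers outside the rule, Ak7 (-0.96), Dnali1 (-0.80) and Tmem212 (-0.66) were lower, Rarres2 (0.80) and Tppp3 (0.71) were higher, and Mia did not pass; 4 of the 6 also stand among the other motile axoneme genes. Astrocyte and radial glia markers were lower in 1 of 10 cases, the progenitor filament gene Nes (-1.31, adjusted p = 0.00226), and higher in none. Neuron markers were lower in 8 of 11 cases with a median of -1.57, led by Stmn2 (-2.67) and Dlx1 (-2.46). Progenitor markers were lower in 2 of 6 cases, Pdgfra (-1.26) and Nxph1 (-2.35). Macrophage markers were higher in 11 of 12 cases (median 0.96), mural cell markers in 9 of 10 (median 1.18), and oligodendrocyte markers in 9 of 9 (median 3.94). Endothelial markers passed in 1 of 7 cases (Egfl7, 0.74, adjusted p = 0.0477). That call was lost without A2B5+ replicate 2 (0.0805), A2B5+ replicate 4 (0.0722) or GalC+ replicates 1, 2 or 3 (0.111, 0.0795 and 0.114), without both arrays numbered 2 (0.116), and with quantile normalization (0.0557), median centring (0.0578) or array weights (0.0545). Since the level of a probe set is not known, no marker can be called absent.

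Array by array, the median log2 ratio of the 38 motile axoneme genes was 0.26, 0.29, 0.16 and 0.12 in A2B5+ and -0.17, -0.27, -0.24 and -0.14 in GalC+. That of the 29 transport genes was 0.18, 0.35, 0.04 and 0.12 against -0.12, -0.15, -0.09 and -0.11. A2B5+ replicate 2 was the highest of all arrays in both divisions and GalC+ replicate 2 the lowest. Neuron markers had medians of 0.43, 0.66, 0.42 and 0.51 in A2B5+ and -0.75, -1.16, -1.68 and -0.58 in GalC+, and dividing cell markers 0.34, 0.70, 0.24 and 0.37 against -0.36, -0.55, -0.47 and -0.30. Both were also highest on A2B5+ replicate 2, and dividing cell markers were lowest on GalC+ replicate 2, as the ciliary genes were. Choroid plexus markers had 0.16, -0.23, 0.13 and -0.05 against 0.00, -0.38, 0.05 and 0.10, with mixed groups. The part of neurons or of dividing cells in the difference of the ciliary genes was not tested.

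**Figure D4:**
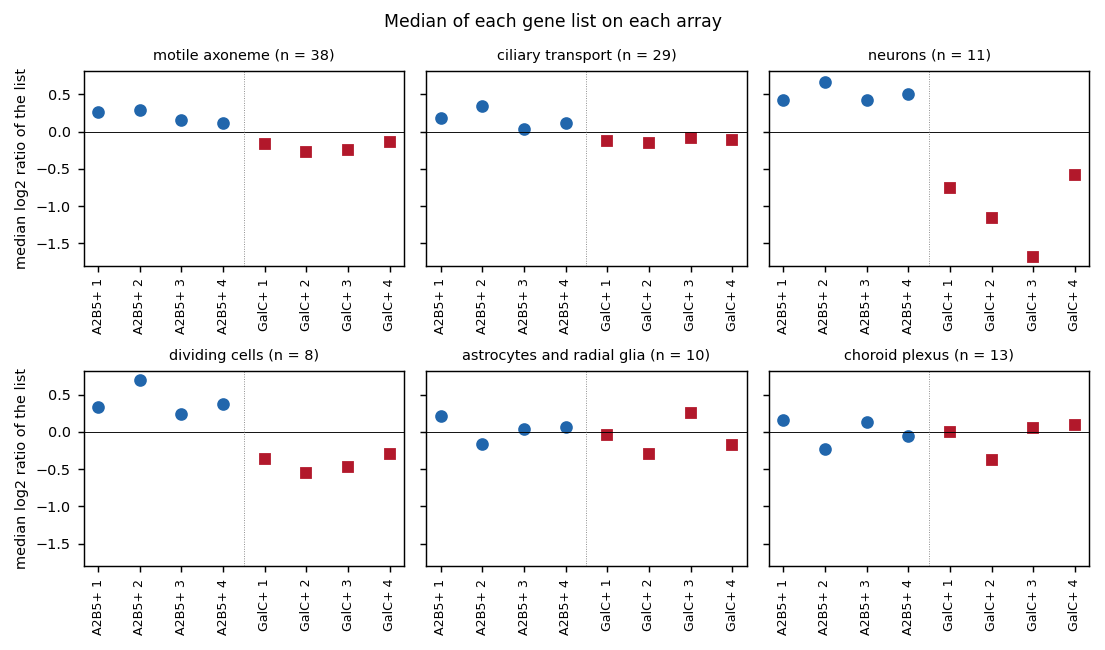
Median log2 ratio of each gene list on each array, A2B5+ as blue circles and GalC+ as red squares, 4 arrays each. Motile axoneme, transport, neuron and dividing cell lists are above 0 on every A2B5+ array and below 0 on every GalC+ array, whereas the choroid plexus list is lowest on both arrays numbered 2.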

How the data were processed

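RNA of 4 A2B5+ and 4 GalC+ samples was labelled with biotin and read on 1 array each. Per the submitters' processing notes, RMA was used (no version is given in the sources used here). As deposited, values are a ratio: signal divided by the median of the same probe set across the 8 arrays. That division is inferred, since all 31099 rows have a median of 1 within 0.0015. The division removes the level, so that probe sets near background, whose fold is compressed, could not be set aside.

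Ratios were log2 transformed without a pseudocount, 57 control probe sets were left out, and the remaining 31042 were named through the platform's gene table: 20826 had 1 symbol, 436 several and 9780 none. Only those with 1 symbol were used, and each of 14217 genes was read from its probe set with the largest variance over the 8 arrays. This rule tends to take the larger fold where probe sets disagree. It does not always do so, as Spag9 was read at -0.25 while another of its probe sets showed -0.53. All 78 cilium and axoneme genes had a gene ID in the RefSeq table (GRCr8), with 0 symbols changed. The populations were compared by a linear model per gene (lmFit, then eBayes; limma 3.58.1, R 4.3.3; two-sided), GalC+ minus A2B5+, adjusted by Benjamini-Hochberg over all 14217 genes, with a threshold of 0.05. Intervals are at 95%. The fit was tested on simulated data, in which far fewer genes changed than here. It recovered 32 of 67 changes of 0.5 on the log2 scale and 61 of 67 changes of 1.

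The genes, roles, lists and motif were chosen with earlier results of these data known. Named were every cilium and axoneme gene past the threshold, the extremes of each role, fixed regulators and markers, and up to 2 rises and 2 falls of each list; others complete counts or were named after their values were seen. A2B5+ and GalC+ arrays of the same number deviated together from their group means over genes (correlations 0.47, 0.12, 0.34 and 0.21, against -0.26 to 0.12 for other pairs), a pairing found in the data and not in the labels. The replicate number as a block was an alternative, beside averaged probe sets, array weights, a trended and robust prior, median centring, quantile normalization, an adjusted p under 0.01 and leaving out each array. Leaving out both arrays numbered 2 was added after the data were seen. Each replicate of a population is a pooled litter of its own; whether both populations of 1 number share a litter is not stated. The sources used here give no scan date or other batch.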

Additional observations from a re-analysis of the deposited data

Results flagged for a closer look

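Of 156 groups of 4 arrays (78 genes in 2 populations), 5 held an array far from the other 3 by Dixon's criterion; chance flags about 1 in 20 groups. Ift88 was 1.283 on A2B5+ replicate 2, against 1.028 to 1.067 on the other A2B5+ arrays. Rfx4 was 0.633 and Spag5 0.551 on GalC+ replicate 2, against 0.854 to 0.906 and 0.741 to 0.768 on the others. Rsph9 was 1.277 on A2B5+ replicate 4, against 1.168 to 1.171. Rsph6a was 1.133 on A2B5+ replicate 3, against 0.974 to 0.987. In Ift88, Rfx4, Spag5 and Rsph9 the array that stood apart lay farther from the other population than the rest of its group.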

How the results depend on the processing

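Of the 44 calls, 36 were kept under every alternative at an adjusted p under 0.05, and 42 in all 8 fits that left out 1 array; Foxj1 and Cfap97 were the exceptions in those fits. The replicate block kept all 44 and added those of Cfap77 and Cfap100 given above; it changed no other call among the 78 genes. Quantile normalization, median centring and array weights also kept all 44, a trended and robust prior 43, and averaged probe sets 41 (Dnal1, Ift81 and Tctn1 were lost). At an adjusted p under 0.01, 37 calls were left. No call turned its direction under any of these settings. The number of ciliary transport genes higher in GalC+ was 1, and 2 with averaged probe sets; in the fits that left out 1 array it lay between 1 and 2, the second gene being Kif3b without A2B5+ replicate 4. The other counts of higher or lower genes stayed within 1.5 times. Without both arrays numbered 2 the median of the motile axoneme genes was -0.35 (from -0.45) and that of the ciliary transport genes -0.20 (from -0.30); the latter was -0.19 without A2B5+ replicate 2 alone. Quantile normalization and median centring moved the median of all genes by -0.04 and -0.03. The number of arrays limits what can be seen, so a gene that did not pass may still differ.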

Other observations

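Over all 78 genes, A2B5+ replicate 2 was the highest of the 8 arrays in 37 and GalC+ replicate 2 the lowest in 29. A2B5+ replicate 2 was also the highest of the 8 for neuron markers (median log2 ratio 0.66) and the lowest for oligodendrocyte markers (-3.69). How often these arrays were extreme over all genes was not counted. By probe set, 48 of 102 were lower in GalC+ and 2 higher (limma, adjusted over 31042 probe sets), against 13.2% and 13.5% of all probe sets. The 102 all have 1 symbol, whereas the 31042 include 9780 with none and 436 with several, so the sets are not alike. Of 19 genes with several probe sets, 11 had the same call in all of them, and 0 had opposite calls.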
